A study of Mus musculus with 13 samples.

Results

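Interfollicular keratinocytes, the epithelial cells of the skin surface between hair follicles, were sorted from K14Cre/+ Il12rb2fl/fl mice, and the transcripts of cells taken after 1 day of Aldara were compared with those of untreated cells. Aldara is a cream with 5% imiquimod that was put on the skin. The comparison took 7 of the study's 13 RNA sequencing libraries, chosen by their labels alone, 3 of them from Aldara-treated and 4 from untreated skin of this genotype. The other 6 libraries came from Il12rb2fl/fl mice without Cre, 3 after Aldara and 3 untreated, and are called floxed control here. All mice were labelled C57/BL6 and all carried the floxed Il12rb2 alleles. K14Cre expresses Cre recombinase from the keratin 14 promoter, which is active in basal keratinocytes, so that only keratin 14 lineages are expected to lose the gene and immune cells of the skin are expected to keep it. The sources used here do not give the age or sex of the mice, their number per library, the sort gates or the floxed exons. Libraries of vehicle-treated skin and of mice with Cre and no floxed allele were not analysed here, so the effects of imiquimod, of the cream base and of handling the skin cannot be told apart. The labels number the libraries of a group without tying the numbers to animals, and the p-values below therefore speak only of the scatter among these libraries, part of which could be technical.

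Imiquimod activates Toll-like receptor 7, an endosomal sensor of single-stranded RNA, and repeated Aldara is a common way to produce psoriasis-like inflammation in mice. Il12rb2 encodes the subunit of the interleukin-12 receptor that signals through STAT4. Keratinocytes divide in the basal layer, where keratins 5 and 14 and hemidesmosomes anchor them to the basement membrane. On leaving that layer they switch to keratins 1 and 10, build many desmosomes and finally form the cornified envelope and its lipids. In stressed or wounded epidermis, part of this programme gives way to growth, antimicrobial proteins and inflammatory signals.

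Depth was 9138243, 13476587 and 14089450 counts in Aldara libraries 1 to 3, and 12700506, 5830034, 12529127 and 16511356 counts in untreated libraries 1 to 4 of the Il12rb2-deleted genotype. All levels below are CPM, that is counts relative to library size with TMM scaling, and are given in the order of the library numbers. The keratinocyte markers Trp63 and Krt14 were high in all 7 libraries, but the keratin markers Krt14, Krt5, Krt1 and Krt10 all fell after Aldara, as given below. Trp63, the master regulator of stratified epithelium, lay at 533, 437 and 554 CPM in Aldara libraries, against 667, 641, 686 and 780.1 CPM in untreated libraries. Krt14 stood at 5456 CPM per kb of exon in Aldara and 15347 in untreated libraries. Ptprc, which marks leukocytes, stayed at or under 7.72 CPM in every one of the 7 libraries. Cd3e, which marks T cells, stayed at or under 1.13 CPM in each. Transcripts of other cell types were not all low. Summed over 19 tested markers of Langerhans cells, dendritic cells and macrophages, Aldara libraries held 588, 981.5 and 1340 CPM. Untreated libraries held 688, 1029, 430 and 573 CPM. Fibroblast markers were present as well and are given below. Aldara 1 stood apart from Aldara 2 and 3, at -175 against -42.9 and -35.4 on the first principal component of the 7 libraries (39.2% of the variance), where the untreated libraries lay between 34.0 and 79.1. On the second component (24.9%), untreated 1 and 2 lay at -69.5 and -111, against 88.9 and 78.6 for untreated 3 and 4. Reads assigned to the predicted gene Gm10800 made up 1.17 to 1.32% of the counts in Aldara libraries, 5.21 and 10.3% in untreated 1 and 2, and 0.000543 and 0.00127% in untreated 3 and 4, and untreated 1 and 2 also had more genes detected (21410 and 21097) than untreated 3 and 4 (14320 and 14620).

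Il12rb2 (ENSMUSG00000018341, chr6:67291318-67376188, minus strand, GRCm38), the floxed gene itself, was lower after Aldara. It had 0, 1.07 and 1.64 CPM in Aldara libraries, against 22.7, 8.52, 25.6 and 19.0 CPM in untreated libraries. No Aldara value reached the lowest untreated one, and the 0 of Aldara 1 allows up to 0.306 CPM, the level of 3 counts in that library, a limit that covers counting error only. The difference passed the test (log2 change -4.33, SE 0.86, adjusted p = 0.00391), and the call held without any single library. In floxed control the gene had 1.98, 8.14 and 2.68 CPM in Aldara libraries, against 17.1, 78.8 and 52.7 CPM in untreated libraries, so that 1 untreated floxed control library lay within the untreated range of the Il12rb2-deleted cells, and it changed by -3.56 (SE 0.83, adjusted p = 0.0192). Since the floxed exons are not known, counts over the whole gene do not check the deletion, and transcripts of the gene were present in all 4 untreated Il12rb2-deleted libraries. Il12rb1, the other chain of the receptor, was counted at 12.0, 3.43 and 3.56 CPM in Aldara libraries, against 0.257, 0.594, 0 and 0.961 CPM in untreated libraries. Its Aldara values were all above the untreated ones, but the difference did not pass (log2 change 3.78, SE 1.64, adjusted p = 0.138).

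Of 16051 genes tested, 1254 rose after Aldara (7.81%) and 1235 fell (7.69%) in the Il12rb2-deleted cells, at an adjusted p under 0.05 in edgeR's quasi-likelihood test. The decreases were the larger ones. Of the fallen genes 105 changed by more than 4 on the log2 scale and 108 by 3 to 4, against 26 and 23 of the risen genes, and the median change was -1.66 among the fallen and 1.20 among the risen. All 3 Aldara values exceeded all 4 untreated values in 2276 genes (14.2%) and lay below them in 2378 (14.8%), and the median change over all genes tested was -0.09. Counts of calls moved with single libraries, to 806 risen genes without untreated 1, and to 643 risen and 853 fallen without both untreated libraries high in Gm10800. Of the 2489 calls, 1186 held without each of the 7 libraries in turn.

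In the floxed control libraries, which share no sample with this comparison, 666 genes rose (4.15%) and 466 fell (2.9%). The floxed control calls numbered 1132 in all, but 215 without untreated 2, 288 without untreated 3, 422 without Aldara 1 and 618 without Aldara 2 of that genotype. Of the genes that rose in Il12rb2-deleted cells, 557 also rose in floxed control, which is 44.4% of the first list and 83.6% of the second. Of those that fell, 385 also fell in floxed control, 31.2% and 82.6% of each list. The direction in floxed control was the same for 1240 of the 1254 risen and 1196 of the 1235 fallen genes. These genes were selected by their calls, and over all genes tested the log2 changes of both genotypes had a Pearson correlation of 0.512. The test of the difference between the genotypes' Aldara effects called 0.0% of genes, 0 of 16051, with 539 at an unadjusted p under 0.05. DESeq2 called 2 genes, Ccdc80 and Grk3, and edgeR called Ccdc80 (adjusted p = 0.0492) once floxed control untreated 3 was left out. With these libraries a difference between the genotypes in the Aldara effect was thus not detectable by edgeR, and the larger number of calls in the Il12rb2-deleted cells is not by itself a difference between genotypes.

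**Figure D1:**
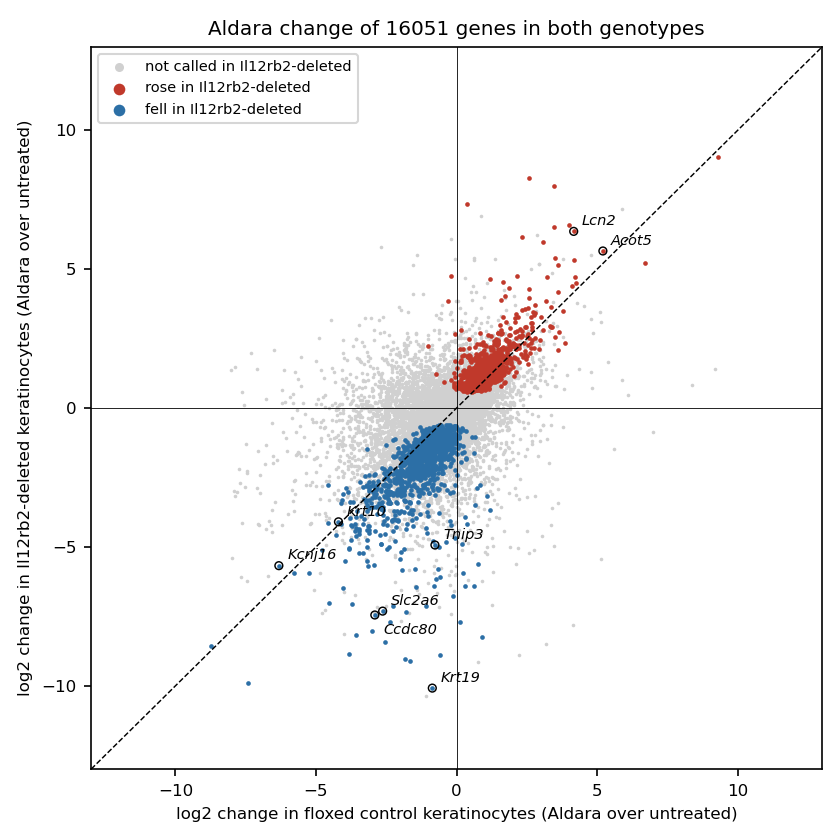
Log2 change with Aldara in Il12rb2-deleted cells (vertical axis) against that in floxed control cells (horizontal axis), 1 point per gene tested, red and blue where the gene rose or fell in Il12rb2-deleted cells, with the line of equal change dashed. Most coloured points share their sign on both axes, and Ccdc80, Slc2a6, Tnip3 and Krt19 lie far below the line although the test of the difference called 0 genes.

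The 5 genes with the smallest p for that difference all had the more negative change in the Il12rb2-deleted cells, and none passed. Ccdc80, a secreted matrix protein, changed by -7.45 (SE 0.73) in Il12rb2-deleted and -2.91 (SE 0.56) in floxed control cells. Slc2a6, a sugar transporter, changed by -7.31 and -2.63, and Tnip3, an inhibitor of NF-kB signalling, by -4.93 and -0.77. Syne3, a linker of the nuclear envelope, changed by -4.18 and 0.37, and Grk3, a kinase of G protein-coupled receptors, by -3.66 and 1.20. The smallest adjusted p for the difference over all genes rounded to 1.

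The largest increases were taken among called genes that averaged log2 CPM 3 or more and whose groups did not overlap. Slpi (chr2:164354070-164389095, minus strand), an inhibitor of neutrophil proteases, had 186, 33.6 and 32.3 CPM in Aldara libraries, against 0.771, 3.56, 0 and 0.192 CPM in untreated libraries. Lcn2 (chr2:32384633-32388252, minus strand), lipocalin 2, which withholds iron from bacteria, had 2269, 1204 and 1448 CPM in Aldara libraries, against 39.9, 20.0, 18.2 and 1.86 CPM in untreated libraries. For both genes every Aldara library stood well above every untreated one, with Aldara 1 the highest (Slpi log2 change 6.60, SE 1.19, adjusted p = 0.00217; Lcn2 log2 change 6.36, SE 1.13, adjusted p = 0.00197). S100a8, a subunit of the antimicrobial protein calprotectin, had 141, 47.3 and 106 CPM in Aldara libraries, against 0.6, 0.792, 0.544 and 12.2 CPM in untreated libraries. Untreated 4 was the highest of the untreated libraries, and the gene rose (log2 change 4.72, SE 1.01, adjusted p = 0.00594), with a change of 7.28 without untreated 4.

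Acot5, a peroxisomal acyl-CoA thioesterase, had 24.0, 86.9 and 144 CPM in Aldara libraries, against 0, 2.77, 2.88 and 1.35 CPM in untreated libraries. Pctp, a carrier of phosphatidylcholine, had 32.9, 33.9 and 31.7 CPM in Aldara libraries, against 1.63, 2.18, 0 and 0 CPM in untreated libraries, and St3gal5, the synthase of the ganglioside GM3, had 45.4, 20.5 and 31.4 CPM in Aldara libraries, against 0.171, 1.78, 1.56 and 0 CPM in untreated libraries. The lowest Aldara value of each was many times its highest untreated value (Acot5 log2 change 5.66, SE 0.90, adjusted p = 0.00117; Pctp log2 change 5.40, SE 0.88, adjusted p = 0.00132; St3gal5 log2 change 5.35, SE 1.03, adjusted p = 0.00311). The remaining increases among the 15 largest were Klk6 (5.15), a kallikrein protease, Ccer2 (4.77), Prss12 (4.52), a secreted serine protease, Fbp1 (4.49), an enzyme of gluconeogenesis, Ces4a (4.40), Acox2 (4.28), a peroxisomal oxidase, Adig (4.16), Mettl7b (3.95) and Vnn3 (3.86).  Ccer2 lost its call without untreated 1 or 3 or Aldara 2 (adjusted p up to 0.0572) and Vnn3 without untreated 1, 3 or 4, Aldara 2 or 3, floxed control untreated 3 or floxed control Aldara 1 or 2 (up to 0.115). The size of the Vnn3 change also depended on untreated 2, without which it was 6.80. The calls of Klk6 (adjusted p = 0.0554), Ccer2 (0.0954), Fbp1 (0.0562) and Adig (0.0695) were lost without both untreated libraries high in Gm10800.

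The largest decreases were chosen by the same rule. Ccdc80 had 0.614, 0.0714 and 0.342 CPM in Aldara libraries, against 91.0, 56.2, 37.1 and 47.8 CPM in untreated libraries, and Slc2a6 had 0, 0.0714 and 0.274 CPM in Aldara libraries, against 14.5, 12.7, 18.7 and 39.5 CPM in untreated libraries. Neither gene had an Aldara value above 1 CPM, and neither had an untreated value below 10 CPM (Ccdc80 log2 change -7.45, SE 0.73, adjusted p = 0.00016; Slc2a6 log2 change -7.31, SE 0.98, adjusted p = 0.000603). Guca2a, guanylin, a peptide that activates a guanylate cyclase, had 0, 0.857 and 0.342 CPM in Aldara libraries, against 25.4, 15.4, 48.3 and 137 CPM in untreated libraries. Mt4, the metallothionein of stratified squamous epithelium, had 0, 1.14 and 1.23 CPM in Aldara libraries, against 49.6, 16.8, 76.3 and 62.2 CPM in untreated libraries. The 2 groups stood far apart for both (Guca2a log2 change -7.03, SE 0.91, adjusted p = 0.000485; Mt4 log2 change -5.93, SE 0.87, adjusted p = 0.000827).

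Kcnj16, an inward rectifier potassium channel, had 0.102, 0 and 1.50 CPM in Aldara libraries, against 23.8, 11.5, 46.7 and 34.1 CPM in untreated libraries. The highest of its Aldara values was well under the lowest untreated one (log2 change -5.68, SE 1.14, adjusted p = 0.00406, or -9.12 without Aldara 3). Krt19, a keratin of simple and follicular epithelium, had 0.409, 0 and 0 CPM in Aldara libraries, against 463, 3.56, 34.5 and 5.19 CPM in untreated libraries. Its untreated values spread widely, untreated 1 being far above the rest, and its change was the largest of all genes named here (log2 change -10.08, SE 2.58, adjusted p = 0.0158). The other large decreases were Lum (-5.66) and Col1a1 (-5.19), matrix genes of fibroblasts, Adamts14 (-5.23), Mmp3 (-5.07), a matrix metalloproteinase, Svopl (-5.21), Sema3d (-5.05), a guidance cue, Krt78 (-5.02), a suprabasal keratin, and Skint7 (-5.52) and Skint9 (-5.10). Krt19 lost its call without Aldara 1, 2 or 3 (adjusted p up to 0.0634).

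**Figure D2:**
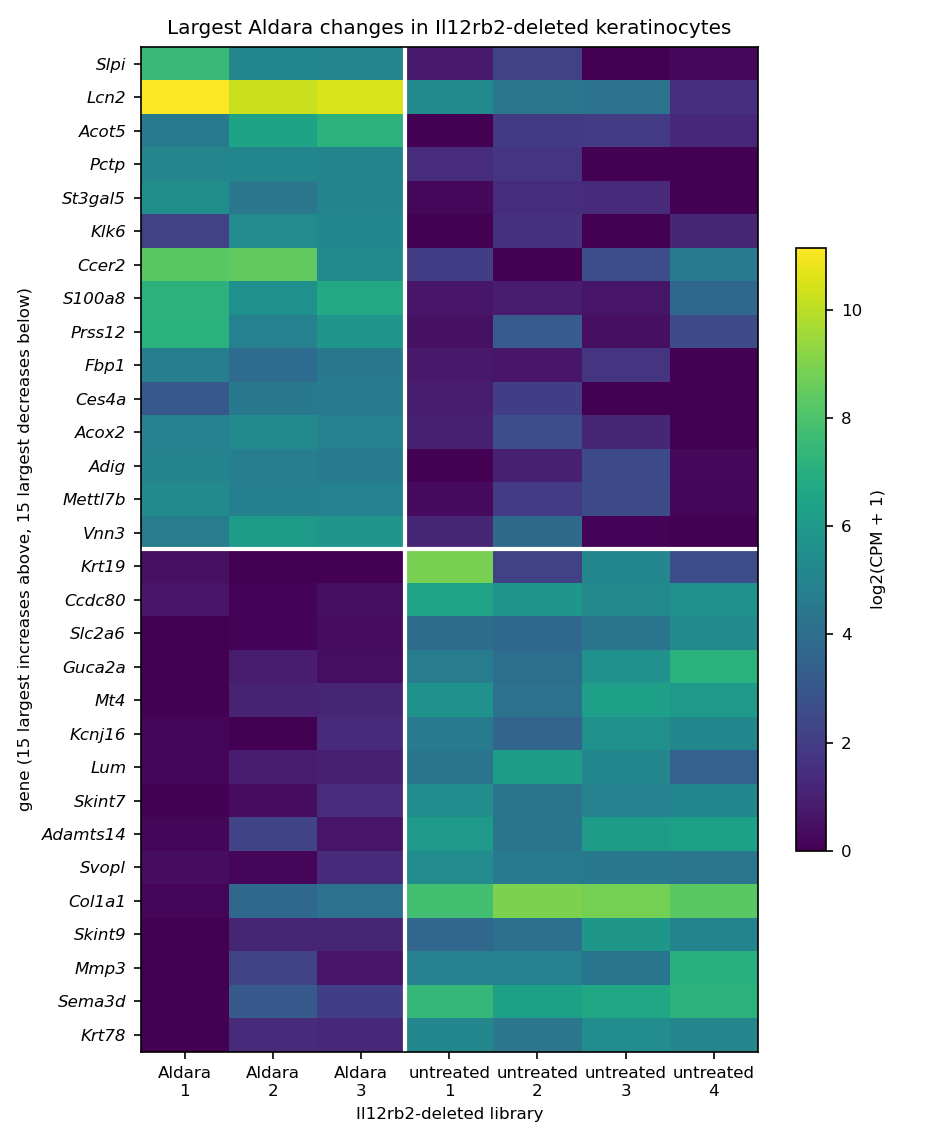
Level of the 15 genes with the largest increase (above the line) and the 15 with the largest decrease (below it) in each Il12rb2-deleted library, as log2(CPM + 1), with the 3 Aldara libraries left of the 4 untreated ones. Every gene shown was chosen for not overlapping between the groups, and Krt19 is the gene whose untreated libraries differ most, from 3.56 to 463 CPM.

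Of 25 genes of suprabasal keratins and desmosomes, 19 fell and 0 rose, with a median change of -1.69 against -0.09 over all genes, of which 7.69% fell, and 14 fell without Aldara 1. Krt10 (chr11:99385254-99389364, minus strand), the main keratin of the spinous layer, had 22.4, 164 and 169 CPM in Aldara libraries, against 2295, 1298, 2488 and 2040.5 CPM in untreated libraries. Krt77, another suprabasal keratin, had 15.0, 54.0 and 34.3 CPM in Aldara libraries, against 765, 402, 1160.3 and 674 CPM in untreated libraries. Dsg1a, a desmosomal cadherin of the upper epidermis, had 10.3, 25.1 and 40.1 CPM in Aldara libraries, against 516, 252, 537 and 498 CPM in untreated libraries. In each case all Aldara values were far below all untreated values, and Aldara 1 was the lowest of all (Krt10 log2 change -4.10, SE 0.58, adjusted p = 0.000729; Krt77 log2 change -4.44, SE 0.47, adjusted p = 0.00016; Dsg1a log2 change -4.16, SE 0.52, adjusted p = 0.000412). Krt1, the partner of Krt10, fell by 2.81 on the log2 scale, Dsc3, a desmocollin, by 1.94, and the plakin genes Evpl and Ppl by 2.12 and 1.99. In floxed control 11 of the 25 fell, and Krt10 there changed by -4.20, close to the -4.10 of the Il12rb2-deleted cells.

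Of 22 genes of basal keratins, hemidesmosomes and the basement membrane, 13 fell and 1 rose (median -0.90). Col17a1, the collagen of hemidesmosomes, had 500.1, 758 and 795 CPM in Aldara libraries, against 4857, 2699, 3896 and 5394 CPM in untreated libraries. Krt14 had 7346, 8891 and 12538 CPM in Aldara libraries, against 31514, 23257, 20521 and 32629 CPM in untreated libraries, and Krt5 had 3419.5, 4088 and 5341 CPM in Aldara libraries, against 17087, 11490.0, 8837 and 13983 CPM in untreated libraries. Again no Aldara library reached the untreated range of any of these genes (Col17a1 log2 change -2.62, SE 0.35, adjusted p = 0.000571; Krt14 log2 change -1.49, SE 0.35, adjusted p = 0.00927; Krt5 log2 change -1.58, SE 0.31, adjusted p = 0.00341). The laminin genes Lama3 and Lamb3 fell by 2.06 and 2.03, and Krt15 fell as well (-2.69). Lamb1, a laminin chain of other basement membranes, went the opposite way, with 65.5, 69.7 and 74.6 CPM in Aldara libraries, against 16.4, 30.1, 24.5 and 19.6 CPM in untreated libraries (log2 change 1.63, SE 0.28, adjusted p = 0.00181).

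Among 24 genes of connexins and of tight and adherens junctions, 9 fell and 1 rose (median -0.88), and 5 fell without both untreated libraries high in Gm10800. Cldn1, the tight junction claudin without which the skin barrier fails, had 40.7, 150.5 and 138 CPM in Aldara libraries, against 378, 267, 561 and 711 CPM in untreated libraries (log2 change -2.12, SE 0.46, adjusted p = 0.00643). Aldara 1 was by far the lowest, and the other 2 Aldara libraries were also under every untreated one. Ocln (-2.32) and Cdh1 (-1.08), which encodes E-cadherin, fell as well. Gjb2, the connexin that is induced in wounded and psoriatic epidermis, was the 1 that rose (log2 change 2.18, SE 0.61, adjusted p = 0.0247). In the list of 22 stress and wound keratins and related genes, which holds Gjb2 too, 1 rose and 2 fell (median -0.62). These are 4.55% and 9.09%, near the 7.81% and 7.69% of all genes. The fallen ones were Fosl1 and Plaur, the urokinase receptor (-3.93). The fallen count was 1 without untreated 4 or Aldara 2 and 5 without both untreated libraries high in Gm10800. The risen count was 3 without untreated 4 and 0 without untreated 1 or Aldara 1. In floxed control 2 of the 22 rose and 0 fell (median 0.25). Genes of the cornified envelope were mostly not called: of 18, 1 rose (Ivl, involucrin, log2 change 0.95, SE 0.29, adjusted p = 0.0392) and 2 fell (Krtdap -1.63; Tgm3, a transglutaminase, -4.26), and these counts became 1 and 0 without Aldara 1, and 0 and 1 without untreated 1. Gjb2 lost its call without untreated 1 or 4 or Aldara 1 (adjusted p up to 0.0867), Plaur without untreated 4 or Aldara 2 (up to 0.0815) and Ivl without untreated 1, 2 or 4, Aldara 2 or 3, floxed control untreated 3 or floxed control Aldara 1 or 2 (up to 0.19). Krtdap lost its call without Aldara 1 (adjusted p = 0.0617) and Tgm3 without untreated 1, 2 or 4 or Aldara 1 or 2 (up to 0.101). The calls of Ocln (adjusted p = 0.0503), Gjb2 (0.0807), Ivl (0.233) and Tgm3 (0.115) were lost without both untreated libraries high in Gm10800.

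**Figure D3:**
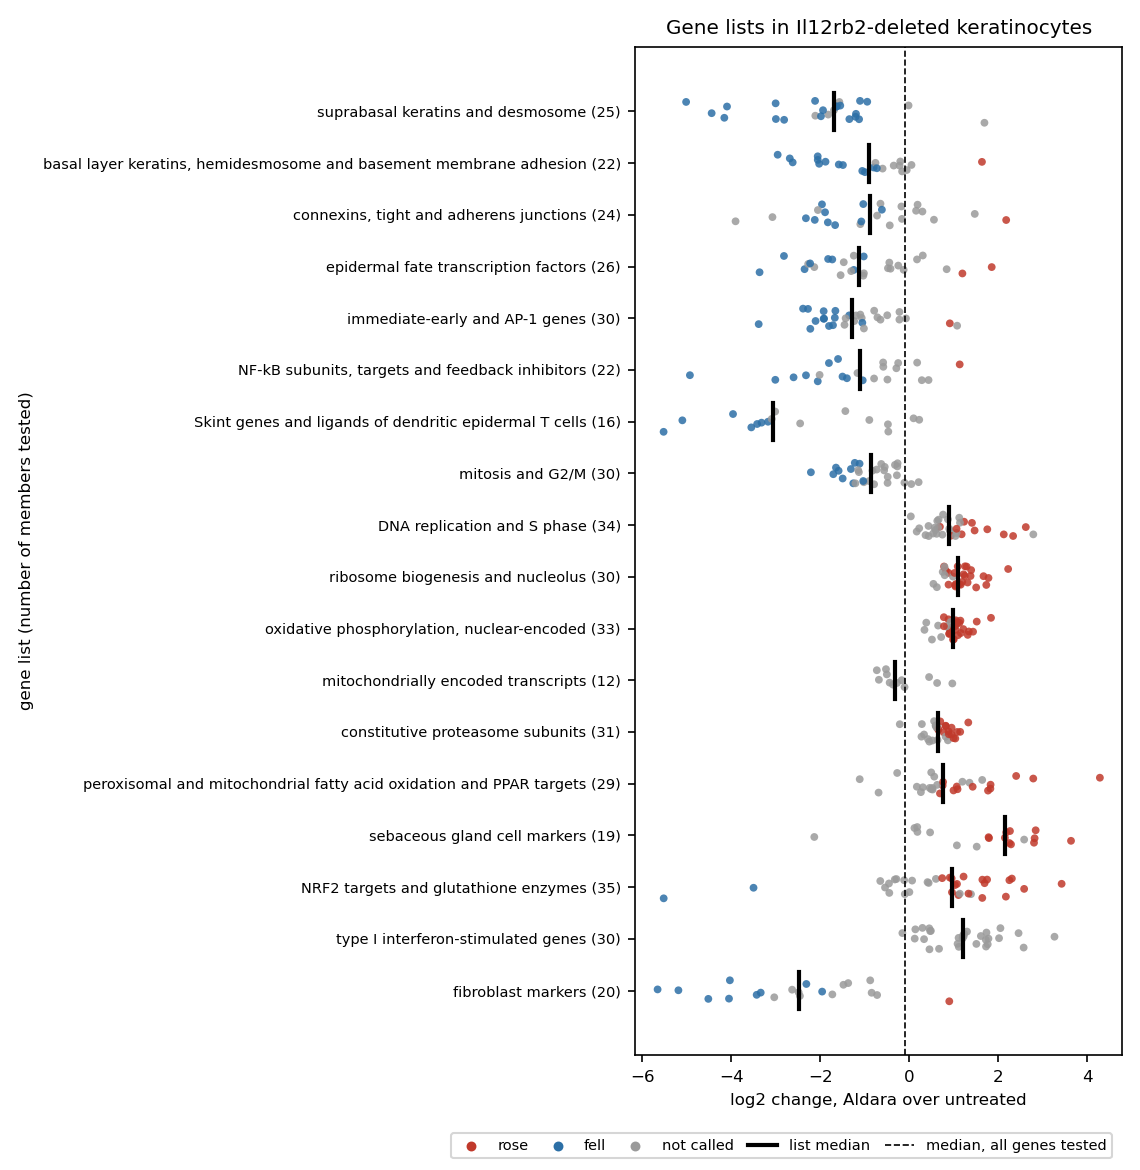
Log2 change with Aldara in Il12rb2-deleted cells for the tested members of 18 gene lists, 1 point per gene, coloured by call, with the list median as a black bar and the median of all genes tested (-0.09) as a dashed line. Adhesion, keratin, immediate-early and Skint lists lie left of the line, while ribosome biogenesis, oxidative phosphorylation, S phase and sebaceous lists lie right of it.

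Of 26 transcription factors that direct epidermal fate, 8 fell and 2 rose (median -1.14). Without Aldara 1, 5 fell and 1 rose, and without both untreated libraries high in Gm10800 7 fell and 0 rose. Maf, a driver of terminal differentiation, had 1.33, 4.71 and 4.45 CPM in Aldara libraries, against 43.7, 29.7, 39.3 and 33.1 CPM in untreated libraries. Each Aldara value was under each untreated value (log2 change -3.37, SE 0.47, adjusted p = 0.00069). Ovol1 (-2.82), Ets1 (-2.23) and Gata3 (-1.82) fell with it. Cebpb, a factor of the basal to suprabasal transition and of acute-phase genes, had 31.5, 37.0 and 43.4 CPM in Aldara libraries, against 3.51, 11.1, 17.4 and 9.35 CPM in untreated libraries. It rose in all 3 Aldara libraries relative to all untreated ones (log2 change 1.85, SE 0.46, adjusted p = 0.0144). No gene of the 18 in the Notch pathway was called by edgeR (median -0.27), with 3 at an unadjusted p under 0.05, 2 called by DESeq2 and 2 by limma voom, and edgeR called 1 without Aldara 1 or without Aldara 3. The call of Cebpb was lost without both untreated libraries high in Gm10800 (adjusted p = 0.0781).

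Genes of fatty acid and neutral lipid metabolism rose more often than they fell. Of 44 such genes 15 rose and 1 fell, with a median of 1.14 against -0.09 over all genes, of which 7.81% rose. Far2, which reduces fatty acyl-CoA to fatty alcohols for wax esters, had 497, 557 and 603 CPM in Aldara libraries, against 30.8, 127, 91.9 and 67.4 CPM in untreated libraries. Elovl3, an elongase of very long chain fatty acids, had 472, 532 and 523 CPM in Aldara libraries, against 4.20, 69.3, 56.9 and 34.4 CPM in untreated libraries. Plin2, the coat protein of lipid droplets, had 1198, 1721 and 1693 CPM in Aldara libraries, against 86.6, 432, 241 and 115 CPM in untreated libraries. Untreated 1 was the lowest library for all 3 genes, and the Aldara values were close to each other (Far2 log2 change 2.80, SE 0.39, adjusted p = 0.00069; Elovl3 log2 change 3.63, SE 0.63, adjusted p = 0.00175; Plin2 log2 change 2.82, SE 0.49, adjusted p = 0.00182). Pparg, the nuclear receptor that directs lipid storage genes, had 117, 96.4 and 94.8 CPM in Aldara libraries, against 4.97, 44.8, 23.5 and 12.5 CPM in untreated libraries, again with no overlap (log2 change 2.29, SE 0.57, adjusted p = 0.0144). Fasn (1.78), the fatty acid synthase, and Gpam (1.85), which starts triglyceride synthesis, rose too. Acsl1, which activates long chain fatty acids, was the 1 that fell (-1.44).

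Of 29 genes of fatty acid oxidation 13 rose and 0 fell (median 0.75). Acadl, the mitochondrial long chain acyl-CoA dehydrogenase, had 485, 633 and 449.6 CPM in Aldara libraries, against 144, 226, 135 and 109 CPM in untreated libraries (log2 change 1.77, SE 0.30, adjusted p = 0.00163). All Aldara values were above all untreated values. Acox2 rose by 4.28 on the log2 scale. Of 29 cholesterol genes, 8 rose and 4 fell (median 0.33). Mvd (1.93), a step of the mevalonate pathway, rose, while Abcg1 (-4.02), which exports cholesterol, and Sc5d (-1.86) fell. The 8 became 4 without untreated 1, untreated 4 or Aldara 2, 5 without Aldara 1 or 3 and 3 without both untreated libraries high in Gm10800, and the 4 became 2 without untreated 1, Aldara 2 or Aldara 3. The 30 genes of barrier lipids split into 5 risen and 6 fallen (median -0.88). Cers2 (1.33), a ceramide synthase, was among the risen, and Sgms1 (-2.38), a sphingomyelin synthase, and Abca12 (-1.26), the lipid transporter of lamellar granules, were among the fallen, which became 2 without Aldara 1, while the 5 became 3 without untreated 1, Aldara 2 or Aldara 3. Abca12 lost its call without untreated 3 or 4 or Aldara 1, 2 or 3 (adjusted p up to 0.119).

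The lipid genes overlap with a list of 19 markers of sebaceous gland cells, of which 11 rose and 0 fell (median 2.15), and 7 rose without untreated 4. Summed over that list, the level was 7141, 8880.5 and 9474 CPM in Aldara libraries, against 1178, 5059.7, 3718 and 1633 CPM in untreated libraries. The risen markers include Mc5r (2.18), a melanocortin receptor of sebocytes, and Soat1 (1.79). In these bulk libraries more cells of a type and more RNA per cell cannot be told apart, nor can fewer cells and less RNA, and whether sebaceous cells in the sort play a part in the lipid genes was not tested. Mc5r lost its call without untreated 4 or Aldara 2 or 3 (adjusted p up to 0.0774) and Soat1 without untreated 4 or Aldara 1, 2 or 3 (up to 0.0789).

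Most nuclear-encoded subunits of the respiratory chain rose, while no transcript of the mitochondrial genome was called. Of 33 nuclear-encoded genes of oxidative phosphorylation, 25 rose, 0 fell and all 33 had a positive change (median 0.98). Sdhb, the iron-sulfur subunit of succinate dehydrogenase, had 315, 280.3 and 282 CPM in Aldara libraries, against 72.4, 106, 113 and 118 CPM in untreated libraries. Ndufa4, a subunit of cytochrome c oxidase, had 523, 434 and 353 CPM in Aldara libraries, against 82.7, 82.0, 167 and 157 CPM in untreated libraries. Both genes had every Aldara library above every untreated one (Sdhb log2 change 1.52, SE 0.20, adjusted p = 0.000603; Ndufa4 log2 change 1.84, SE 0.35, adjusted p = 0.0032). Of the 12 mitochondrially encoded transcripts, edgeR called 0 and 3 had a positive change (median -0.32), with 0 at an unadjusted p under 0.05, 0 called by DESeq2 and 0 by limma voom. Without both untreated libraries high in Gm10800, 11 of the 33 were called and the median stayed at 0.94. The call of Ndufa4 was lost without both untreated libraries high in Gm10800 (adjusted p = 0.0514).

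Hspd1, the chaperonin of the mitochondrial matrix, had 977, 1074 and 927 CPM in Aldara libraries, against 142, 252, 205 and 185 CPM in untreated libraries (log2 change 2.34, SE 0.27, adjusted p = 0.000299), without overlap. Its partner Hspe1 rose by 1.88. Of the 24 heat shock genes 11 rose, among them the cytosolic chaperonin subunit Cct3 (1.25) and Hsp90aa1 (0.92), and 4 fell, namely the stress-inducible Dnajb1 (-2.47), Hspb8 (-2.06), Dnajb4 (-1.44) and Hspb1 (-0.67). The 11 became 5 without Aldara 1 or 2, 6 without Aldara 3, 7 without untreated 1, 2 or 3 and 3 without both untreated libraries high in Gm10800, and the 4 became 2 without Aldara 2 or 3. Hsp90aa1 lost its call without untreated 2, 3 or 4 or Aldara 1, 2 or 3 (adjusted p up to 0.111), Dnajb4 without untreated 3 or 4 or Aldara 2 or 3 (up to 0.0922) and Hspb1 without untreated 1 or Aldara 1, 2 or 3 (up to 0.0762). The calls of Hsp90aa1 (adjusted p = 0.134) and Hspb1 (0.0729) were lost without both untreated libraries high in Gm10800.

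The list with the largest share of risen members was that of ribosome biogenesis and the nucleolus. Of its 30 genes 24 rose, 0 fell and all 30 had a positive change (median 1.10). Srm, spermidine synthase, an enzyme of polyamine synthesis rather than a nucleolar protein, had 382, 252 and 298 CPM in Aldara libraries. Its untreated libraries had 50.5, 66.5, 62.4 and 87.1 CPM. Nop2, an rRNA methyltransferase, had 251, 128 and 153 CPM in Aldara libraries, against 48.1, 47.3, 63.9 and 63.9 CPM in untreated libraries. Mybbp1a, a nucleolar protein of rRNA processing, had 468, 331 and 334 CPM in Aldara libraries, against 122, 158, 132 and 165 CPM in untreated libraries. Each Aldara value lay above every untreated value for all 3 genes (Srm log2 change 2.22, SE 0.23, adjusted p = 0.00016; Nop2 log2 change 1.67, SE 0.24, adjusted p = 0.000704; Mybbp1a log2 change 1.39, SE 0.24, adjusted p = 0.00175). Fbl, fibrillarin (1.25), and Npm1, nucleophosmin (1.04), rose. Leaving out single libraries gave 18 to 26 risen members, and leaving out both untreated libraries high in Gm10800 gave 11, with a median of 0.94. Floxed control cells had 23 of 30 risen. Of the 38 ribosomal protein genes 2 rose and 0 fell, and 5.26% is a smaller share than the 7.81% of all genes that rose. Yet 35 of the 38 had a positive change, and 13 had an unadjusted p under 0.05 in edgeR. Their median was 0.42, against -0.09 over all genes. The 2 became 0 without untreated 1, Aldara 1 or Aldara 2 and 4 without untreated 4, and DESeq2 called 6. Without both untreated libraries high in Gm10800 0 rose and the median was 0.14. The call of Npm1 was lost without both untreated libraries high in Gm10800 (adjusted p = 0.0721).

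Many genes of ribosome biogenesis are targets of MYC, whose classical site is the E-box CACGTG, a palindrome. RefSeq promoter windows (GRCm38.p6), from 250 bases before to 50 bases after the gene start, were found for 20 of the 24 risen members. Of these 20 genes 5 (25.0%) held the letters CACGTG, close to the 6 of 25 (24.0%) among all tested members with a window. The share was 10.9% of all 11559 tested genes with a window, 15.3% of the risen genes with one and 11.7% of the fallen. The windows of Nop2 (chr6:125131633-125131932, plus strand) and Mybbp1a (chr11:72441077-72441376, plus strand) are shown because both genes were called in every leave-one-out fit and hold that site, here in capitals, 60 bases before and 40 bases after the start.
Nop2: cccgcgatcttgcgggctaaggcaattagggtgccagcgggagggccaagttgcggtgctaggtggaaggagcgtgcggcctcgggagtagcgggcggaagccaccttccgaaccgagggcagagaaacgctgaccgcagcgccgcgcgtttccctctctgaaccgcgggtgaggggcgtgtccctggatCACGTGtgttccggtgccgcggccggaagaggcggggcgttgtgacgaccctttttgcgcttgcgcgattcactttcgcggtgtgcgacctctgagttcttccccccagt
Mybbp1a: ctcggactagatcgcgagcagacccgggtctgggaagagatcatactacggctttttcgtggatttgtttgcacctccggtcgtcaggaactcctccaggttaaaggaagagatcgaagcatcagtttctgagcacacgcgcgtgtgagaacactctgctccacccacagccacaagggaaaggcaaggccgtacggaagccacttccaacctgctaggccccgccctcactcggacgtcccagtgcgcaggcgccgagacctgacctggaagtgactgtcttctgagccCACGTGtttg

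Of 28 genes of amino acid supply 13 rose and 4 fell (median 0.73), with 5 risen without both untreated libraries high in Gm10800. Slc7a5, the large neutral amino acid transporter that feeds mTORC1, had 36.9, 58.6 and 55.6 CPM in Aldara libraries, against 4.37, 4.75, 7.08 and 4.29 CPM in untreated libraries. Slc1a4, an exchanger of alanine, serine and cysteine, went the opposite way with 2.25, 9.21 and 5.95 CPM in Aldara libraries, against 53.1, 37.8, 42.6 and 57.8 CPM in untreated libraries. There was no overlap for either gene (Slc7a5 log2 change 3.29, SE 0.53, adjusted p = 0.00127; Slc1a4 log2 change -3.03, SE 0.44, adjusted p = 0.000802). The serine synthesis enzymes Phgdh (1.49), Psat1 (1.19) and Psph (1.81) all rose, as did 5 aminoacyl-tRNA synthetases, and Slc1a1 (-3.76) and Slc6a14 (-3.48) fell. Of 31 constitutive proteasome subunits 15 rose and 0 fell (median 0.65), with 7 risen without untreated 1 or Aldara 1, 9 without untreated 2, 8 without Aldara 2 and 2 without both untreated libraries high in Gm10800. Of 28 genes of the unfolded protein and integrated stress responses, 6 rose and 3 fell (median 0.39), with 3 risen without untreated 1, without untreated 3 or without both untreated libraries high in Gm10800, and 2 without Aldara 2. The 3 fallen became 1 without untreated 1, 3 or 4 or Aldara 1 or 3. Creld2 (1.46) and Atf5 (1.70) were among the 6, and Sesn2 (-1.90) among the 3. The call of Psat1 was lost without both untreated libraries high in Gm10800 (adjusted p = 0.0795).

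Of 34 S phase genes, 11 rose, 0 fell and all 34 had a positive change (median 0.88). Mcm7, a subunit of the replicative helicase, had 192, 158 and 175 CPM in Aldara libraries, against 54.9, 61.2, 101 and 81.1 CPM in untreated libraries. Rrm2, the regulated subunit of ribonucleotide reductase, had 263, 152 and 221 CPM in Aldara libraries, against 35.7, 30.1, 81.6 and 103 CPM in untreated libraries. Mcm3, another helicase subunit, had 206, 136 and 193 CPM in Aldara libraries, against 26.1, 51.9, 94.9 and 84.7 CPM in untreated libraries. All 3 had higher values in every Aldara library than in any untreated one, and untreated 1 and 2 were the lowest for each (Mcm7 log2 change 1.23, SE 0.22, adjusted p = 0.00193; Rrm2 log2 change 1.75, SE 0.36, adjusted p = 0.00429; Mcm3 log2 change 1.47, SE 0.35, adjusted p = 0.0105). Without those 2 libraries Mcm3 lost its call (change 0.95, adjusted p = 0.0714), Rrm2 changed by 1.16, 4 of the 34 genes were called and the median was 0.48. Leaving out untreated 1 or Aldara 3 gave 6 calls, and leaving out untreated 2 or Aldara 1 gave 7. Floxed control cells had 16 of 34 risen (median 1.26).

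Of 30 genes of mitosis and the G2/M phase, 10 fell and 0 rose (median -0.86), with 6 fallen without untreated 1 or Aldara 1, 5 without Aldara 2 and 16 called by DESeq2. Anln, a scaffold of the cleavage furrow, had 33.9, 58.3 and 88.4 CPM in Aldara libraries, against 293, 202, 228 and 394 CPM in untreated libraries (log2 change -2.21, SE 0.41, adjusted p = 0.00266). Every Aldara value was under every untreated value. Aurka, a mitotic kinase, fell by 1.59, Prc1, a spindle midzone protein, by 1.65 and Ccnb1, cyclin B1, by 1.12. Of 21 genes of cell cycle arrest and G1 control, 2 rose and 7 fell (median -0.57), with 3 fallen without Aldara 1 and 4 without Aldara 2. The 2 risen became 1 without untreated 1 or 3 or Aldara 1 or 3, and 0 without Aldara 2 or without both untreated libraries high in Gm10800. Gadd45a (-2.20) and Mdm2 (-1.79), both targets of p53, fell, and so did the inhibitor Cdkn1a (log2 change -1.14, SE 0.28, adjusted p = 0.0134). Ccnb1 lost its call without untreated 1, 3 or 4, Aldara 1, 2 or 3, floxed control untreated 1 or floxed control Aldara 1 (adjusted p up to 0.171) and Cdkn1a without Aldara 1 (0.0661). The call of Ccnb1 was lost without both untreated libraries high in Gm10800 (adjusted p = 0.0908).

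E2F factors drive replication genes through sites such as TTTNGCGC, where N is any base. On either strand, that motif was present for 4 of the 9 risen S phase genes with a window and for 9 of the 27 tested members with one, against 2.59% of all genes with a window, 4.06% of those that rose and 1.38% of those that fell. A gene with several windows counted once if any of them held the motif, and Mcm7 has a second window, chr5:138171217-138171516, without it. The windows with a match are those of Mcm7 (chr5:138171834-138172133, minus strand), Mcm3 (chr1:20820263-20820562, minus strand), Mcm5 (chr8:75109259-75109558, plus strand) and Cdt1 (chr8:122567765-122568064, plus strand), printed to show where the motif, in capitals, falls relative to the start. The match lies 16 bases after the start in Mcm7, 38 after it in Mcm3 and 32 after it in Cdt1, while in Mcm5 there are 2 overlapping matches on opposite strands from 153 bases before it.
Mcm7: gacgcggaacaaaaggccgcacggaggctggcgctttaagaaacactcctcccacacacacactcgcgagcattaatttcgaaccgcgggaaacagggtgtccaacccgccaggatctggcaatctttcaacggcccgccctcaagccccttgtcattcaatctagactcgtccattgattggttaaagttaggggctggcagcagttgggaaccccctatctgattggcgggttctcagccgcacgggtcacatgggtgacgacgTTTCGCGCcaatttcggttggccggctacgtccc
Mcm3: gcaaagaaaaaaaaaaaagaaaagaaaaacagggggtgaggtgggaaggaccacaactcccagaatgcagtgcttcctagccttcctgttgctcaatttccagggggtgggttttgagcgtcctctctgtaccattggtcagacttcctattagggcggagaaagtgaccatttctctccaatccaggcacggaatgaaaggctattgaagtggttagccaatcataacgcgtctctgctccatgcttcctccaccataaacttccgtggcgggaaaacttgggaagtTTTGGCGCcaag
Mcm5: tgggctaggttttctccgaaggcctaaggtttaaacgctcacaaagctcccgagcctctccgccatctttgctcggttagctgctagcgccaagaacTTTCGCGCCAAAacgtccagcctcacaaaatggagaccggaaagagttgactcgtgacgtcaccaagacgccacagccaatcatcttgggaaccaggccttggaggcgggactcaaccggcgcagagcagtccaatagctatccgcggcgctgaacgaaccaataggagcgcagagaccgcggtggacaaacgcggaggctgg
Cdt1: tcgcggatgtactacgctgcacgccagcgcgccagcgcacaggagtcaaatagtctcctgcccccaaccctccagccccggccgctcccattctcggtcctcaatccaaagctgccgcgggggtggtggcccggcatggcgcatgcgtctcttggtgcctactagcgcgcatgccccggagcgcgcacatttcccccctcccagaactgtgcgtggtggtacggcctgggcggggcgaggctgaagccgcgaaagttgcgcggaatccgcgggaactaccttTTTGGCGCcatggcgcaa
Such matches describe letters only, and none was tested as a binding site. Mcm5 (1.18) and Cdt1 (1.41) were themselves among the 11 risen genes. Mcm5 lost its call without untreated 1 or 2 or Aldara 1, 2 or 3 (adjusted p up to 0.0918) and Cdt1 without untreated 1 or 2 or Aldara 1 or 3 (up to 0.109). The calls of Mcm5 (adjusted p = 0.192) and Cdt1 (0.143) were lost without both untreated libraries high in Gm10800.

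**Figure D4:**
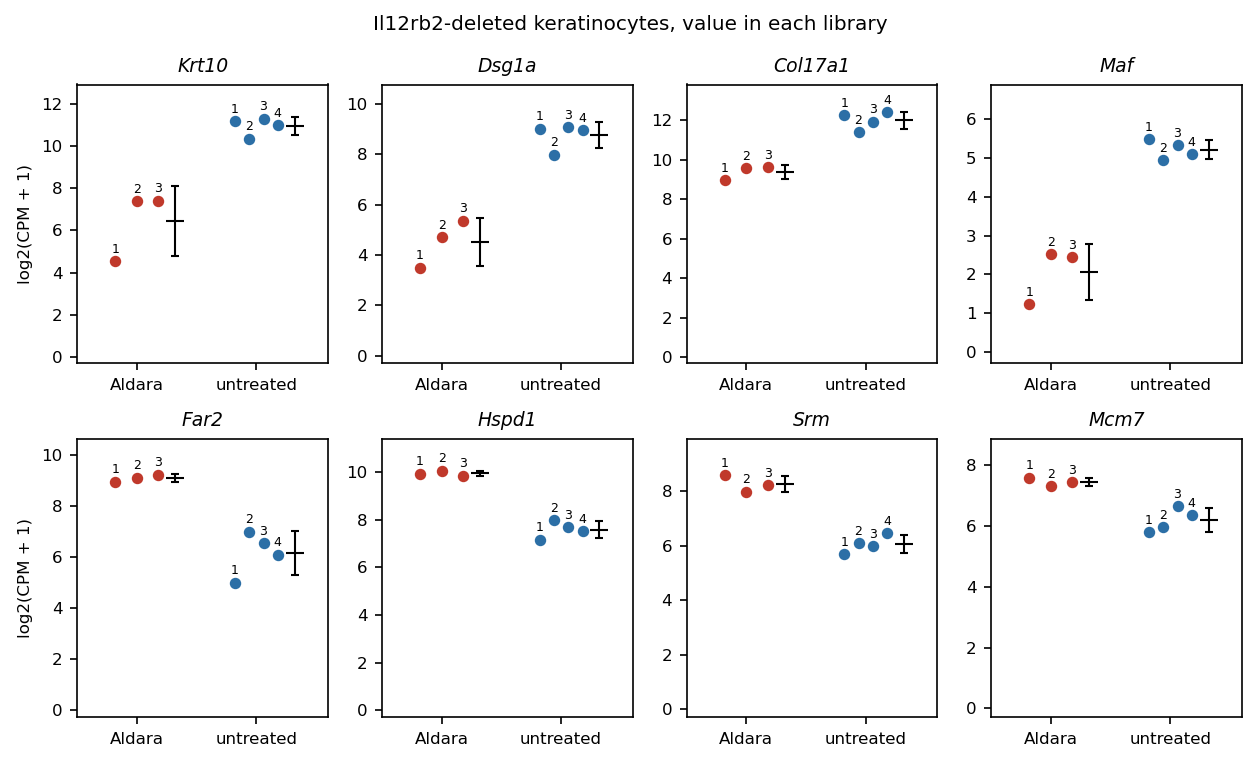
Level of 8 genes in each Il12rb2-deleted library as log2(CPM + 1), with the library number beside each point and the mean ± SD of the group as a black mark. Krt10, Dsg1a, Col17a1 and Maf lie lower in all 3 Aldara libraries than in all 4 untreated ones, and Far2, Hspd1, Srm and Mcm7 lie higher.

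Targets of NRF2, the transcription factor of the oxidative stress response, and glutathione enzymes rose in 18 of 35 cases and fell in 2 (median 0.95). Gclm, the regulatory subunit of the enzyme that limits glutathione synthesis, had 189, 189 and 225 CPM in Aldara libraries, against 33.9, 84.2, 33.3 and 28.5 CPM in untreated libraries. Tkt, transketolase of the pentose phosphate pathway, had 779, 708 and 1089.5 CPM in Aldara libraries, against 236, 345, 221 and 262 CPM in untreated libraries. Both separated the groups fully (Gclm log2 change 2.17, SE 0.34, adjusted p = 0.0011; Tkt log2 change 1.69, SE 0.26, adjusted p = 0.00105). Slc7a11, the cystine importer (2.58), Txnrd1 (1.22) and Pgd (1.64) rose as well. Gsta2 (-5.52) and Gpx3 (-3.50) fell. The 18 became 11 without untreated 1 and 10 without both untreated libraries high in Gm10800, and the 2 became 1 without untreated 1 or 3 and 0 without Aldara 1 or 2. Of 28 genes of glycolysis and the hypoxia response, 2 rose and 5 fell (median -0.33), with 3 fallen without untreated 1, untreated 4 or Aldara 2, and 0 risen and 3 fallen without both untreated libraries high in Gm10800. Gapdh rose (0.82), and Pfkfb3, a switch of glycolytic flux, fell (-3.04), as did the hypoxia target Ndrg1 (-2.21). Slc7a11 lost its call without untreated 1 or 4 or Aldara 1 (adjusted p up to 0.102), Gsta2 without untreated 1 or 3 or Aldara 1 or 2 (up to 0.0942) and Gpx3 without Aldara 1 or 2 (up to 0.0622). Gapdh lost its call without untreated 2 or 3 or Aldara 2 or 3 (adjusted p up to 0.132). The calls of Slc7a11 (adjusted p = 0.0675), Txnrd1 (0.0535), Gpx3 (0.147) and Gapdh (0.122) were lost without both untreated libraries high in Gm10800.

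Immediate-early genes respond within minutes to growth factors or stress. Of 30 such genes 14 fell and 1 rose (median -1.30), or 6 fallen without Aldara 1. Fosl1, which encodes the AP-1 subunit FRA1, had 14.3, 73.7 and 57.6 CPM in Aldara libraries, against 594, 208, 459 and 771 CPM in untreated libraries. Atf3, a stress-induced factor of the same family, had 432, 1013 and 774 CPM in Aldara libraries, against 3758, 2231, 3667 and 4682 CPM in untreated libraries. Jun had 1228, 1597 and 1610.5 CPM in Aldara libraries, against 5313, 3829.6, 4768 and 4967 CPM in untreated libraries. Untreated values of all 3 genes were high, and no Aldara value reached them (Fosl1 log2 change -3.39, SE 0.60, adjusted p = 0.00193; Atf3 log2 change -2.28, SE 0.44, adjusted p = 0.00313; Jun log2 change -1.67, SE 0.41, adjusted p = 0.0127). Nr4a1 (-1.93) and Dusp1 (-2.23) fell too, and Egr3 was the 1 that rose (0.91). Jun lost its call without Aldara 1 (adjusted p = 0.0531) and Egr3 without untreated 1, 3 or 4 or Aldara 2 or 3 (up to 0.162). The call of Egr3 was lost without both untreated libraries high in Gm10800 (adjusted p = 0.0625).

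Of 22 genes of NF-kB subunits, targets and feedback inhibitors 10 fell and 1 rose (median -1.11). Icam1, the adhesion molecule that leukocytes bind, had 122, 61.9 and 71.1 CPM in Aldara libraries, against 389.9, 271, 439 and 597 CPM in untreated libraries. Tnip3 had 1.33, 0.714 and 1.09 CPM in Aldara libraries, against 17.9, 15.8, 35.6 and 58.0 CPM in untreated libraries. Sod2, the mitochondrial superoxide dismutase, was the 1 that rose, with 157, 182 and 209 CPM in Aldara libraries, against 77.4, 75.6, 98.8 and 81.0 CPM in untreated libraries. Each of the 3 genes separated the groups without overlap (Icam1 log2 change -2.32, SE 0.36, adjusted p = 0.00109; Tnip3 log2 change -4.93, SE 0.85, adjusted p = 0.00178; Sod2 log2 change 1.13, SE 0.19, adjusted p = 0.00137). Tnfaip3 (-3.01), Birc3 (-1.81), Relb (-1.60) and Rela (-1.40) also fell. In floxed control 1 of the 22 fell, but no NF-kB gene passed the test of the difference. Among 19 genes of epidermal growth factor receptor signalling, 2 rose and 5 fell (median -0.13). Erbb3 (-1.87) and the ligand Epgn (-2.73) were among the fallen, and the ligand Nrg4 (2.40) and the inhibitor Spry4 (3.08) were the risen pair, of which 1 was called without untreated 1, untreated 4 or any single Aldara library. Spry4 lost its call without untreated 1 or 4, Aldara 1, 2 or 3 or floxed control Aldara 1 or 2 (adjusted p up to 0.101).

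Targets of the type 3 cytokines interleukin-17 and interleukin-22 include several of the largest increases. Of 20 such genes 8 rose and 1 fell (median 0.83). Beside Slpi, Lcn2 and S100a8, Cxcl1, a neutrophil chemoattractant, rose. It had 259, 78.1 and 150.3 CPM in Aldara libraries, against 25.1, 59.0, 56.8 and 64.4 CPM in untreated libraries, with Aldara 1 the highest and Aldara 2 the lowest of the 3 (log2 change 1.66, SE 0.38, adjusted p = 0.00865). S100a9 (3.72), the partner of S100a8, Saa3 (4.66), Steap4 (1.61) and Il20 made up the rest, and Nfkbiz, a coactivator of interleukin-17 targets, fell (-1.05). Without Aldara 1, 4 genes rose, 0 fell and the list median was 0.04. Without untreated 1, or without Aldara 3, 5 rose and 0 fell, and without both untreated libraries high in Gm10800 5 rose and 1 fell. Cxcl1 lost its call without Aldara 1 (adjusted p = 0.0604), S100a9 without untreated 1 or 2 or Aldara 1, 2 or 3 (up to 0.0909) and Saa3 without untreated 1, 3 or 4 or Aldara 1, 2 or 3 (up to 0.0898). Steap4 lost its call without Aldara 3 (adjusted p = 0.0516) and Nfkbiz without untreated 1, 3 or 4, Aldara 1, 2 or 3, floxed control untreated 2 or floxed control Aldara 1 or 2 (up to 0.168). The calls of Cxcl1 (adjusted p = 0.0525) and S100a9 (0.153) were lost without both untreated libraries high in Gm10800.

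Of 28 chemokines, cytokines and growth factors 11 fell and 1 rose (median -1.60), with 5 fallen without Aldara 1, 6 without Aldara 2 and 7 without Aldara 3 or untreated 4. The risen count was 0 without untreated 1, 3 or 4, or without Aldara 1, 2 or 3. It was also 0 without floxed control untreated 1, 2 or 3. Il33, an alarmin stored in keratinocyte nuclei, had 50.3, 82.3 and 85.1 CPM in Aldara libraries, against 271, 229.7, 137 and 339 CPM in untreated libraries (log2 change -1.75, SE 0.39, adjusted p = 0.00703). Bmp4 (-3.55), Il34 (-3.08), the ligand that maintains Langerhans cells, Csf1 (-1.68) and Cxcl14 (-1.53) fell beside it. Of 24 genes of the interleukin-1 family and its receptors 7 fell and 1 rose (median -0.82), or 3 fallen without untreated 1, Aldara 1 or Aldara 3 and 4 without untreated 3. Il18bp, which binds interleukin-18, was the risen one (2.12). Il1rn, the interleukin-1 receptor antagonist, had 9.82, 38.9 and 36.2 CPM in Aldara libraries, against 267, 164, 194 and 299.8 CPM in untreated libraries. Aldara 1 was the lowest, and all Aldara values lay below the untreated range (log2 change -3.02, SE 0.54, adjusted p = 0.00202). Il34 lost its call without Aldara 2 (adjusted p = 0.0501), Csf1 without untreated 1 or 2 or Aldara 1 or 2 (up to 0.0828) and Cxcl14 without Aldara 2 (0.0508). Il18bp lost its call without untreated 1, 3 or 4, Aldara 1, 2 or 3 or floxed control Aldara 1 or 2 (adjusted p up to 0.113). The calls of Csf1 (adjusted p = 0.171) and Il18bp (0.101) were lost without both untreated libraries high in Gm10800.

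Among 39 cytokine receptors and their signal transducers 11 fell and 2 rose (median -0.42), with 7 fallen and 0 risen without Aldara 1. Il6ra, the interleukin-6 receptor chain, had 9.31, 43.3 and 34.3 CPM in Aldara libraries, against 259.8, 121, 159 and 181 CPM in untreated libraries (log2 change -2.63, SE 0.48, adjusted p = 0.00231), again without overlap. Lifr (-1.71), Jak1 (-0.89) and the feedback inhibitor Socs3 (-2.07) fell, and Stat5a (0.76) and Tnfrsf1a (0.75) rose. Of 23 genes of Toll-like receptors, nucleic acid sensors and adaptors 1 rose and 3 fell (median 0.22), Irak1 (1.01) being the risen one, and 1 fell without untreated 1, Aldara 2 or Aldara 3 and 0 without both untreated libraries high in Gm10800. Stat5a lost its call without untreated 1, 3 or 4, Aldara 1 or 3, floxed control untreated 1 or 3 or floxed control Aldara 1 (adjusted p up to 0.116), Tnfrsf1a without Aldara 1 (0.0669) and Irak1 without untreated 1 or 2 or Aldara 2 or 3 (up to 0.0839). The calls of Stat5a (adjusted p = 0.0581), Tnfrsf1a (0.0977) and Irak1 (0.207) were lost without both untreated libraries high in Gm10800.

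Type I interferon-stimulated genes were called in 0 of 30 cases by edgeR, with 29 of 30 changes positive and a median of 1.21. This rested on untreated 2. Isg15, a ubiquitin-like modifier, had 28.3, 53.1 and 26.9 CPM in Aldara libraries, against 1.29, 25.5, 0.622 and 0.961 CPM in untreated libraries. Irf7, the factor that amplifies interferon production, had 100.1, 165 and 116 CPM in Aldara libraries, against 3.60, 148, 0.311 and 6.28 CPM in untreated libraries. Oasl2, an oligoadenylate synthetase-like gene, had 80.7, 171 and 122 CPM in Aldara libraries, against 8.31, 193, 9.56 and 6.47 CPM in untreated libraries. Untreated 2 reached the Aldara range for these genes or came close to it, while untreated 1, 3 and 4 were far below. The changes were 2.46 (SE 1.19, adjusted p = 0.191), 1.72 (SE 1.20, adjusted p = 0.392) and 1.22 (SE 1.00, adjusted p = 0.476), and without untreated 2 they were 5.23 (adjusted p = 0.00592), 5.21 (0.00275) and 3.94 (0.00215). Without that library 17 of the 30 genes rose and the median was 3.04.

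Ifitm3, an antiviral membrane protein, had 1626, 1872 and 1958 CPM in Aldara libraries, against 507, 1385, 402 and 667 CPM in untreated libraries (log2 change 1.30, SE 0.43, adjusted p = 0.0541), and 1.79 (adjusted p = 0.00797) without untreated 2. Summed over the 30 genes, the level was 2724, 3911 and 3293 CPM in Aldara libraries, against 782, 3261, 610.0 and 909 CPM in untreated libraries. DESeq2 called 3 of the 30 and limma voom 13 with all libraries in, and at an unadjusted p under 0.05 edgeR had 5. In floxed control 0 of the 30 were called (median 0.28). Of 30 genes of the interferon-gamma response and antigen presentation 3 rose and 1 fell (median 0.34). These are 10.0% and 3.33%, against 7.81% and 7.69% of all genes. The risen count was 9 without untreated 2, 1 without untreated 1, 3 or 4 or Aldara 2, and 0 without Aldara 3. H2-Aa, an MHC class II chain, had 36.3, 74.8 and 114 CPM in Aldara libraries, against 13.4, 44.6, 16.2 and 19.9 CPM in untreated libraries. Untreated 2 lay above Aldara 1, so the groups overlap (log2 change 1.69, SE 0.42, adjusted p = 0.0141). Cxcl9, a chemokine that T cells follow, had 26.7, 27.3 and 55.6 CPM in Aldara libraries, against 5.49, 20.2, 3.19 and 2.95 CPM in untreated libraries (log2 change 2.24, SE 0.71, adjusted p = 0.0444). The Langerhans cell marker Cd207 was at 0 in all 3 Aldara libraries, which allows up to 0.306, 0.214 and 0.205 CPM, and reached 4.48 CPM in untreated libraries. H2-Aa lost its call without Aldara 3 (adjusted p = 0.0852) and Cxcl9 without untreated 1, 3 or 4, Aldara 1, 2 or 3 or floxed control untreated 1, 2 or 3 (up to 0.165).

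**Figure D5:**
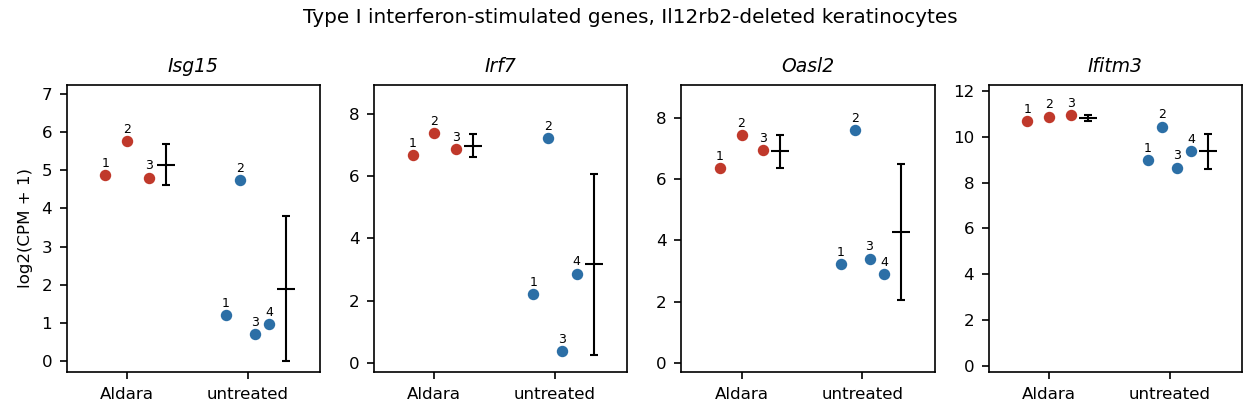
Level of 4 type I interferon-stimulated genes in each Il12rb2-deleted library as log2(CPM + 1), with library numbers beside the points and the mean ± SD of each group as a black mark. Untreated library 2 lies close to the Aldara values for Isg15, among them for Irf7 and above them for Oasl2, while untreated 1, 3 and 4 lie far below them.

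Skint genes, whose products in thymus and epidermis select and maintain dendritic epidermal T cells, fell in 7 of 16 cases with these cells' ligands included, and 0 rose (median -3.05). Skint1, the founding member, had 2.97, 15.1 and 12.1 CPM in Aldara libraries, against 81.9, 57.2, 105 and 121 CPM in untreated libraries. Skint7 had 0, 0.286 and 1.64 CPM in Aldara libraries, against 43.7, 18.8, 29.5 and 33.4 CPM in untreated libraries. H60c, a ligand of the NKG2D receptor, had 2.56, 4.93 and 13.9 CPM in Aldara libraries, against 79.4, 55.6, 70.5 and 102 CPM in untreated libraries. Untreated libraries were above Aldara libraries throughout for these genes (Skint1 log2 change -3.18, SE 0.49, adjusted p = 0.001; Skint7 log2 change -5.52, SE 0.93, adjusted p = 0.00154; H60c log2 change -3.42, SE 0.77, adjusted p = 0.00766). The Skint genes are closely related copies of each other, so the counting may have split or dropped reads among them, and their values are uncertain to that extent. In floxed control 7 of the 16 fell as well.

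Of 23 genes of Wnt signalling 6 fell and 1 rose (median -0.74). Wnt16 had 0.205, 2.64 and 2.87 CPM in Aldara libraries, against 61.4, 17.2, 22.2 and 36.6 CPM in untreated libraries. Fzd1, a Wnt receptor, had 87.8, 93.4 and 93.6 CPM in Aldara libraries, against 17.7, 31.3, 21.2 and 5.89 CPM in untreated libraries. The groups did not overlap, in opposite directions (Wnt16 log2 change -4.14, SE 0.88, adjusted p = 0.00568; Fzd1 log2 change 2.28, SE 0.38, adjusted p = 0.00153). Wnt7b (-3.64), Wnt3 (-3.62), Wnt4 (-2.31) and Wnt5a (-1.60), ligands made by the epidermis, and the receptor Fzd10 (-3.88) were the other fallen genes. Among 19 clock genes 4 fell and 0 rose (median -1.27), with 7 fallen in DESeq2 or without both untreated libraries high in Gm10800. Bhlhe40, a repressor that tunes the clock, had 111, 169 and 152 CPM in Aldara libraries, against 738, 535, 824 and 1021 CPM in untreated libraries (log2 change -2.44, SE 0.39, adjusted p = 0.0013), and all its Aldara values were under its untreated ones. Of 19 YAP target and pathway genes 2 rose and 4 fell (median -0.53), Wwtr1 (-1.68), which encodes TAZ, being among the fallen, and 0 rose without untreated 1 or 3, Aldara 1 or 2, or both untreated libraries high in Gm10800. Of 31 proteases and protease inhibitors 9 fell and 1, Klk6, rose (median -1.01), and 5 fell without Aldara 1, 2 or 3. Klk11 (-3.14), a kallikrein, and Spink5 (-1.83), which restrains kallikreins in the upper epidermis, were 2 of the 9. Metallothioneins and zinc transporters had 3 of 15 fallen and 0 risen, with a list median of 0.45, or 0.004 without Aldara 1, the fallen ones being Mt4, Slc39a6 (-1.76) and Slc39a8 (-1.46). Retinoid genes had 2 risen and 2 fallen of 21 (median 0.21), with Rdh1 (2.10), a retinol dehydrogenase, among the risen. Each count is 9.52% of the list, close to the 7.81% and 7.69% of all genes that rose and fell. Without any single 1 of the 7 libraries 1 retinoid gene fell, 0 rose without Aldara 3, and the median ranged from -0.23 to 0.41. Wnt4 lost its call without untreated 1, 3 or 4, Aldara 3 or floxed control untreated 1, 2 or 3 (adjusted p up to 0.12), Fzd10 without Aldara 2 (0.0602) and Spink5 without Aldara 1 or 2 (up to 0.0532). Slc39a8 lost its call without Aldara 2 (adjusted p = 0.0647) and Rdh1 without Aldara 3 (0.0665). The calls of Wnt4 (adjusted p = 0.0743) and Fzd10 (0.0503) were lost without both untreated libraries high in Gm10800.

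Of 20 fibroblast markers 9 fell and 1 rose (median -2.47). Col1a1 had 0.102, 12.6 and 17.2 CPM in Aldara libraries, against 218, 491, 449 and 316 CPM in untreated libraries, and Lum, lumican, had 0.102, 0.785 and 0.958 CPM in Aldara libraries, against 19.1, 67.5, 35.3 and 10.3 CPM in untreated libraries. Aldara 1 held almost none of either transcript, and every untreated library held many times the Aldara values (Col1a1 log2 change -5.19, SE 1.04, adjusted p = 0.00406; Lum log2 change -5.66, SE 0.87, adjusted p = 0.001). Summed over the list, the level was 367, 386 and 557 CPM in Aldara libraries, against 1367, 3104, 2078 and 1950.3 CPM in untreated libraries. Pdgfra, the receptor that defines fibroblasts, was at 0.716, 1.57 and 1.50 CPM in Aldara libraries, against 5.74, 9.11, 14.9 and 2.05 CPM in untreated libraries, a difference that did not pass (adjusted p = 0.0825). Col1a1 and Lum are among the largest decreases above, and whether these came from fibroblasts in the sort was not tested. Markers of endothelial and mural cells were called by edgeR in 0 of 18 cases (median -1.62), with 4 at an unadjusted p under 0.05, 3 called by DESeq2 and 1 by limma voom. Those of melanocytes and Merkel cells were called in 0 of 14 (median -0.30), with 3 at an unadjusted p under 0.05, 0 called by DESeq2 and 0 by limma voom. Their summed level was 37.6, 103 and 52.0 CPM in Aldara libraries, against 941, 115, 83.4 and 47.2 CPM in untreated libraries, so untreated 1 stood far above the rest. Of hair follicle markers 1 of 19 fell (Cd34 -2.30, list median 0.05), or 5.26% against 7.69% of all genes, with 2 fallen without untreated 1. Of Langerhans cell and macrophage markers 2 of 19 rose (10.5%, against 7.81% of all genes), both MHC class II genes. Of the 19, 5 had a positive change, and the list median was -0.58. The 2 became 0 without Aldara 3 and 4 without untreated 2. Of 8 neutrophil markers 2 rose (S100a8 and S100a9, which keratinocytes also make) and 1 fell, 3 had a positive change and the list median was -2.49. The risen count was 1 without untreated 1 or 2 or any single Aldara library. In the T cell list 1 of 13 fell (Thy1 -2.31, list median -0.60), and 1 of 11 markers of erythroid, muscle and fat cells fell (Hbb-bt -5.70, list median -2.69). These shares, 7.69% and 9.09%, are at or near the 7.69% of all genes that fell. Cd34 lost its call without untreated 2 or Aldara 2 or 3 (adjusted p up to 0.0795), Thy1 without untreated 1 or 4 or Aldara 1 or 2 (up to 0.0653) and Hbb-bt without untreated 1, 2, 3 or 4, Aldara 1, 2 or 3 or floxed control untreated 1 or 3 (up to 0.133). The calls of Cd34 (adjusted p = 0.0737), Thy1 (0.0722) and Hbb-bt (0.0794) were lost without both untreated libraries high in Gm10800.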

How the data were processed

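RNA of interfollicular keratinocytes was extracted with a column kit for small samples and made into Smart-seq2 libraries, read single-end at 100 bases, per the labels' protocols. The submitters' processing notes name STAR, featureCounts of the Subread package and the GRCm38 genome, with no versions or settings. The authors deposited whole-number counts per Ensembl gene for all 13 libraries. Smart-seq2 does not mark strand, so reads of overlapping and antisense genes cannot be told apart.

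Of 25746 genes, 1394 had no count and 16051 passed edgeR's filterByExpr (minimum count 10). edgeR 4.0.16 (R 4.3.3) with TMM scaling was fitted to all 13 libraries with 1 coefficient per group, so that the other 6 libraries share in the estimate of spread. Contrasts were tested by quasi-likelihood and adjusted by Benjamini-Hochberg over all genes tested, and genes were called at an adjusted p under 0.05. Standard errors (SE) were obtained from each log2 change and its F statistic. CPM per kb uses the exon length of GENCODE M21, which also gave the coordinates on GRCm38. Promoter sequences are from RefSeq (GRCm38.p6). Beside the E-box and the E2F motif, the immediate-early list was searched for the CRE motif TGACGTCA and the CArG box. CRE was present for 2 of 13 called and 4 of 25 tested members with a window, against 3.3% of all genes. The CArG box was present for 1 of 13 and 2 of 25, against 1.6%. The fit was tested on simulated data for the Aldara effect in Il12rb2-deleted cells. Planted 2-fold differences were found in 11 of 100 cases, and planted 4-fold differences in 66 of 100. They were planted only in genes that averaged log2 CPM 3 or more, so recovery among lower genes was not tested. False calls numbered 5, with 15376 genes tested. Most 2-fold differences were thus missed, so a gene that was not called cannot be taken as unchanged.

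The comparison, its 50 gene lists (1244 symbols, 1237 found, 1148 tested) and the tests were chosen with earlier results of these data known. Named were Il12rb2, Il12rb1, Krt14 and Krt5, the 15 largest increases and the 15 largest decreases among called genes that averaged log2 CPM 3 or more and had an assigned symbol and no overlap of the groups, up to 4 members of each list by p and the 5 smallest p for the difference between genotypes. Some list members are not reported here. Further list members were picked for their role after their values were seen. Alternatives were DESeq2 size factors, no filter, a minimum count of 50, DESeq2 1.42.0, limma 3.58.1 with voom, the 7 libraries alone, leaving out each library, leaving out the untreated libraries high in Gm10800, removing Gm10800, and a replicate block. Depth limits low genes: 3 counts correspond to 0.192 to 0.593 CPM in these 7 libraries. Figures were drawn with matplotlib 3.10.9.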

Additional observations from a re-analysis of the deposited data

Results flagged for a closer look

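Among 72 sets of values over the 4 Il12rb2-deleted untreated libraries, 10 had a library that stood far from the other 3 by Dixon's criterion. Chance gives about 1 in 20 only for independent sets chosen in advance. Some of these genes were chosen after their values were seen, and the sets share libraries and related genes. The 10 therefore cannot be set against that rate. Untreated 2 was such a library for the interferon-stimulated genes Isg15 (25.5 CPM), Irf7 (148 CPM) and Oasl2 (193 CPM), for Cxcl9 (20.2 CPM) and for the summed level of the 30 type I interferon genes (3261 CPM), and it was high in each case. It also had the highest Gclm (84.2 CPM) and the lowest Dsg1a (252 CPM) of the untreated libraries. Untreated 1 stood apart in Krt19 (463 CPM), untreated 3 in Slc7a5 (7.08 CPM) and untreated 4 in S100a8 (12.2 CPM), each as the highest.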

How the results depend on the processing

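In Il12rb2-deleted cells the 1254 risen and 1235 fallen genes became 806 to 1390 and 824 to 1374 when single libraries were left out. They became 643 and 853 without both untreated libraries of this genotype high in Gm10800, where the median over all genes was 0.14 instead of -0.09, and 699 and 767 without the 3 untreated libraries of both genotypes high in it. DESeq2 called 1572 and 1884, limma voom 1384 and 1285, DESeq2 size factors in edgeR 1231 and 1300, and no filter 1222 and 1023. Whether the labels' replicate numbers pair the libraries is not known. Same-numbered Aldara and untreated libraries had correlations of 0.037, -0.008 and 0.046 in their deviations, and differently numbered ones had -0.084 to 0.084, which cannot settle it. With these numbers as a block 978 genes rose and 941 fell. Of the 2489 calls, 99.7% were made again by DESeq2, 51.8% without both libraries high in Gm10800 and 72.1% with the block. The floxed control calls, 1132, ranged from 215 to 1451 when single libraries were left out and were 2041 with DESeq2, 270 without the 3 libraries and 831 with the block. The test of the difference gave 0 to 1 calls when single libraries were left out, 2 with DESeq2 and 0 with the block. Over 308 genes named or examined, 540 values lost and 102 gained a call under an alternative and 2 changed direction, both of Gm10800 itself, whose change of -1.86 (adjusted p = 0.655) became 10.3 (adjusted p = 0.0312) without both libraries high in it and 10.3 (adjusted p = 0.0136) without all 3. That change follows from which libraries were removed. The cause of the other differences was not tested.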
